A study of Mus musculus with 11 samples.

Results

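The chemokine receptor genes Cx3cr1, Ccr2, Cxcr4, Ccr1 and Ccrl2 were followed in 11 RNA sequencing libraries of myeloid cells sorted from mouse brain. They were taken as the rows of the deposited count tables that carry these symbols, and all 5 were found among 24411 symbols and passed the filter on low counts. The study transplanted blood-forming stem and progenitor cells in a competitive setting, in the context of gene therapy for an Alzheimer's disease model. All cells are labelled microglia-like.

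The libraries cross 3 routes with 3 sorted populations. CD45.1 TAµ, CD45.2 µ and CD45.1 µ cells, named after the allele of the leukocyte antigen CD45 and a cell label, were each sequenced after lumbar intrathecal (ITL), intracerebroventricular (ICV) and intravenous (IV) delivery, with 1 library per combination. Outside this layout of 9 stand a library titled PBS, from ICV and CD45.2, and a control µ library (CTR) with no allele in its labels. What TAµ and PBS abbreviate is not stated, nor is the allele of the host. The labels give no age, sex, strain, disease allele or therapeutic gene, nor how many animals were pooled, and they do not tie an ICV library to 1 of the intravenous co-transplants that the design describes. Each p-value below therefore covers the spread between libraries of different route and population, not between animals.

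Chemokine receptors span the membrane with a bundle of helices and signal through inhibitory G proteins to steer migrating leukocytes along gradients of small secreted proteins. Cx3cr1, the receptor of the neuronal chemokine fractalkine, is a mark of resident microglia. Ccr2, the receptor of Ccl2 and its relatives, brings classical monocytes from marrow into blood and inflamed tissue. Cxcr4 binds Cxcl12 and holds stem and progenitor cells in the marrow. Ccr1 binds inflammatory chemokines such as Ccl3 and Ccl5 on monocytes and neutrophils. Ccrl2 is an atypical receptor that binds chemerin and does not couple to G proteins in the usual way.

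The difference in kind can be read in the coding sequence. The stretches below run over the end of the third membrane helix, 24 codons past a cysteine that all 5 share, on the sense strand of GENCODE vM21 transcripts (build GRCm38). They are shown because the codons in capitals encode the Asp-Arg-Tyr motif by which G proteins engage a typical receptor.
Cx3cr1: atcagcatcGACCGGTACcttgccatcgtc
Ccr2: ctgacaattGATAGGTACttggctattgtt
Cxcr4: atcagcctgGACCGGTACctcgctattgtc
Ccr1: ttgacgattGACAGATACctggccattgtc
Ccrl2: ctccttgtgCAAGGATACagggtgttttcc
Set against Ccr1, the stretches of Cx3cr1, Ccr2 and Cxcr4 had 21, 23 and 20 of 30 bases in common, and that of Ccrl2 had 13. The motif's codons were present in the first 4 genes and absent from Ccrl2. Cxcr4 lies on chromosome 1 and the other members on chromosome 9. How the authors counted reads that fit more than 1 gene of the family is not given in the sources used here, so levels of close relatives may share reads.

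The smallest library (ITL CD45.2 µ) held 6090589 counts and the largest (ICV CD45.2 µ) 21282823, and the 45S ribosomal transcript Rn45s took 6.98% to 25.1% of them. Levels are given as CPM, counts scaled to a library total of 1000000, and their 95% intervals are exact Poisson intervals that cover counting error only. ICV CD45.1 µ and IV CD45.2 µ had the fewest genes with a count, 11456 and 10477 against up to 15492 elsewhere. IV CD45.2 µ held no count of any of 8 classical monocyte or 7 dendritic cell markers, against sums of 103 to 1057 CPM and 1.53 to 41.9 CPM in the other libraries of the layout. The 10 homeostatic microglia markers, among them Tmem119 and P2ry12, were present in every library, at sums of 5880 to 17086 CPM in the 9 libraries and 24090 CPM in CTR. The female-specific RNA Xist had 12.3 to 429 CPM in CD45.1 TAµ, 4028 to 6399 CPM in CD45.2 µ, 295 to 6291 CPM in CD45.1 µ and 0 counts in CTR, so population and sex of the cells cannot be told apart. In sorted bulk samples, fewer cells of a type and less RNA per cell cannot be told apart either.

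**Figure D1:**
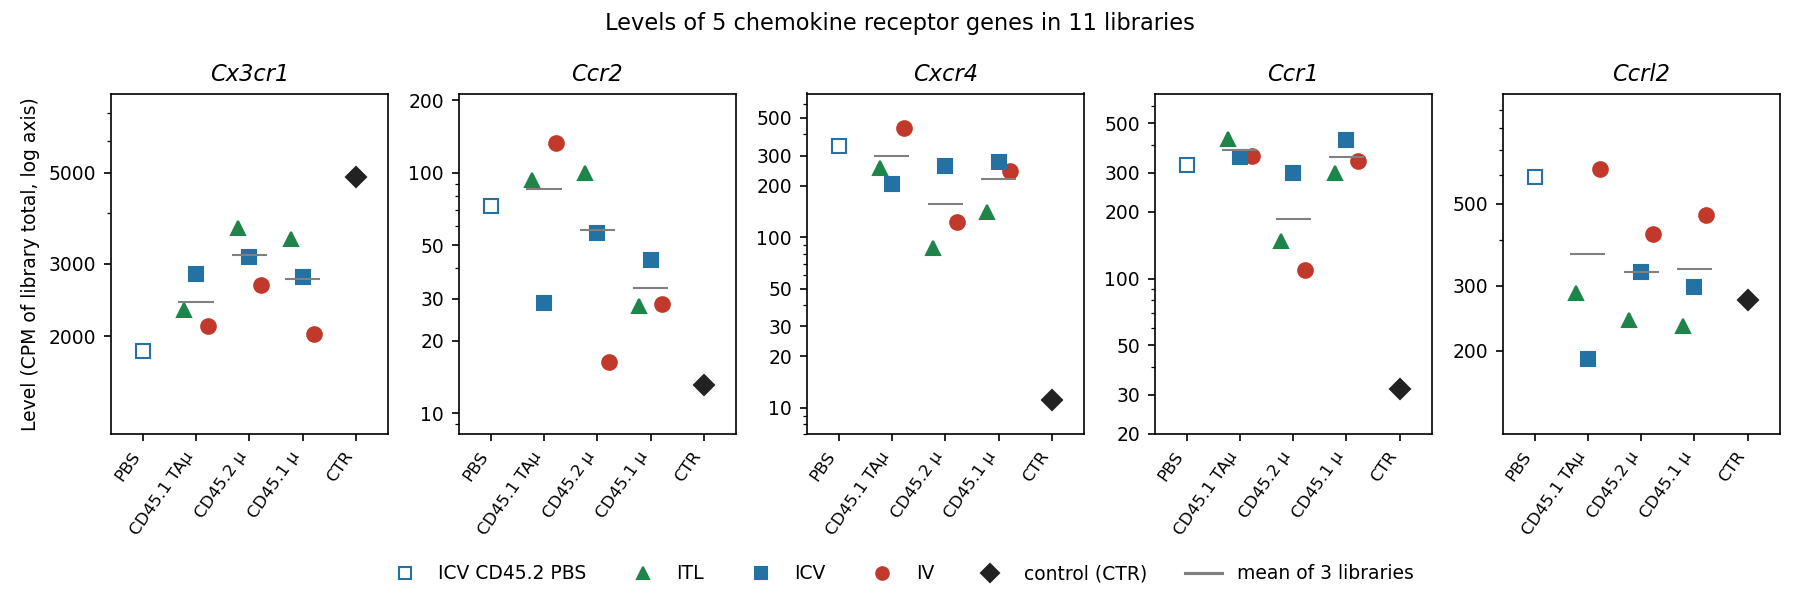
Level of each receptor gene (CPM, log axis) in the 11 libraries, by population and, within it, by route; grey lines are means of 3 libraries, and PBS and CTR are single libraries. Cxcr4 sits at 11.2 CPM in CTR and at 85.9 CPM or more elsewhere, Cx3cr1 is highest in CTR, and Ccrl2 is high in the IV libraries and in PBS.

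Cx3cr1 was the most abundant member. Its level was 2317, 2834 and 2112 CPM in CD45.1 TAµ by ITL, ICV and IV, 3678, 3116 and 2671 CPM in CD45.2 µ, and 3459, 2793 and 2027 CPM in CD45.1 µ, with 1842 CPM in PBS and 4883 CPM in CTR. The control library was the highest and PBS the lowest, and by each route CD45.2 µ was above both CD45.1 populations. Of the 10 neighbouring pairs in the order of levels, only ICV CD45.1 TAµ and ICV CD45.1 µ had overlapping counting intervals.

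Ccr2 was the scarcest. It had 93.3, 28.8 and 133 CPM in CD45.1 TAµ by ITL, ICV and IV, 100.2, 56.4 and 16.3 CPM in CD45.2 µ, and 28.0, 43.2 and 28.5 CPM in CD45.1 µ, against 72.7 CPM in PBS and 13.1 CPM in CTR. Over the 9 libraries of the layout, the ratio of the highest to the lowest level was the widest of the 5 genes, and the order of the routes differed from population to population. In the order of levels, 4 of 10 neighbouring pairs had overlapping intervals, among them IV CD45.2 µ and CTR at the low end.

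Cxcr4 had 254 CPM (ITL), 206 CPM (ICV) and 435 CPM (IV) in CD45.1 TAµ, 85.9, 261 and 123 CPM in CD45.2 µ, and 141, 276 and 244 CPM in CD45.1 µ. It had 342 CPM in PBS and 11.2 CPM in CTR. Both CD45.2 µ libraries other than ICV were under all others of the layout, while the 3 ICV libraries lay close together. Overlapping intervals were found for 3 of 10 neighbouring pairs, all between 276 and 244 CPM.

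For Ccr1 the levels were 426, 353 and 357 CPM in CD45.1 TAµ by ITL, ICV and IV, 148, 299 and 109 CPM in CD45.2 µ, and 300.0, 420.5 and 340 CPM in CD45.1 µ. PBS had 324 CPM and CTR 31.8 CPM. All CD45.1 TAµ libraries were above all CD45.2 µ libraries, and the ITL and IV CD45.2 µ libraries stood apart at the low end of the layout. Counting intervals overlapped in 5 of 10 neighbouring pairs.

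Ccrl2 had 288, 190 and 622 CPM in CD45.1 TAµ by ITL, ICV and IV, 242, 327 and 414 CPM in CD45.2 µ, and 234, 299 and 466 CPM in CD45.1 µ, with 591 CPM in PBS and 275 CPM in CTR. Here the IV library was the highest of its population each time, and the control lay inside the range. Intervals overlapped in 3 of 10 neighbouring pairs.

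Between genes, levels were compared as CPM per kb of annotated exon (GENCODE vM21, which may not be the authors' annotation). On this scale Cx3cr1 was the highest and Ccr2 the lowest in each of the 11 libraries. In the 9 libraries the median was 620.0 CPM per kb for Cx3cr1, 135 for Cxcr4, 120 for Ccr1, 115 for Ccrl2 and 6.39 for Ccr2. The ranges of Cxcr4 (47.5 to 240.3), Ccr1 (38.4 to 150.4) and Ccrl2 (73.2 to 239) overlapped, and their order changed between libraries. In CTR the values were 1084 for Cx3cr1, 106 for Ccrl2, 11.2 for Ccr1, 6.18 for Cxcr4 and 1.94 for Ccr2, so that Cxcr4 and Ccr1, whose medians were near that of Ccrl2 in the 9 libraries, stood far under it in the control.

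Beside them stood few other receptors of the family. Of 24 chemokine receptor genes, 6 had at least 10 CPM in every library: the 5 members and the chemerin receptor Cmklr1. In 14 genes the highest level was under 10 CPM, and Ccr4 and Ackr2 had 0 counts in all 11 libraries. The neutrophil receptor Cxcr2 ran from 1.00 CPM in IV CD45.2 µ to 59.5 CPM in IV CD45.1 µ, the libraries with the lowest and the highest sum of neutrophil markers (504 and 13830 CPM), a list that holds Cxcr2 itself.

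**Figure D2:**
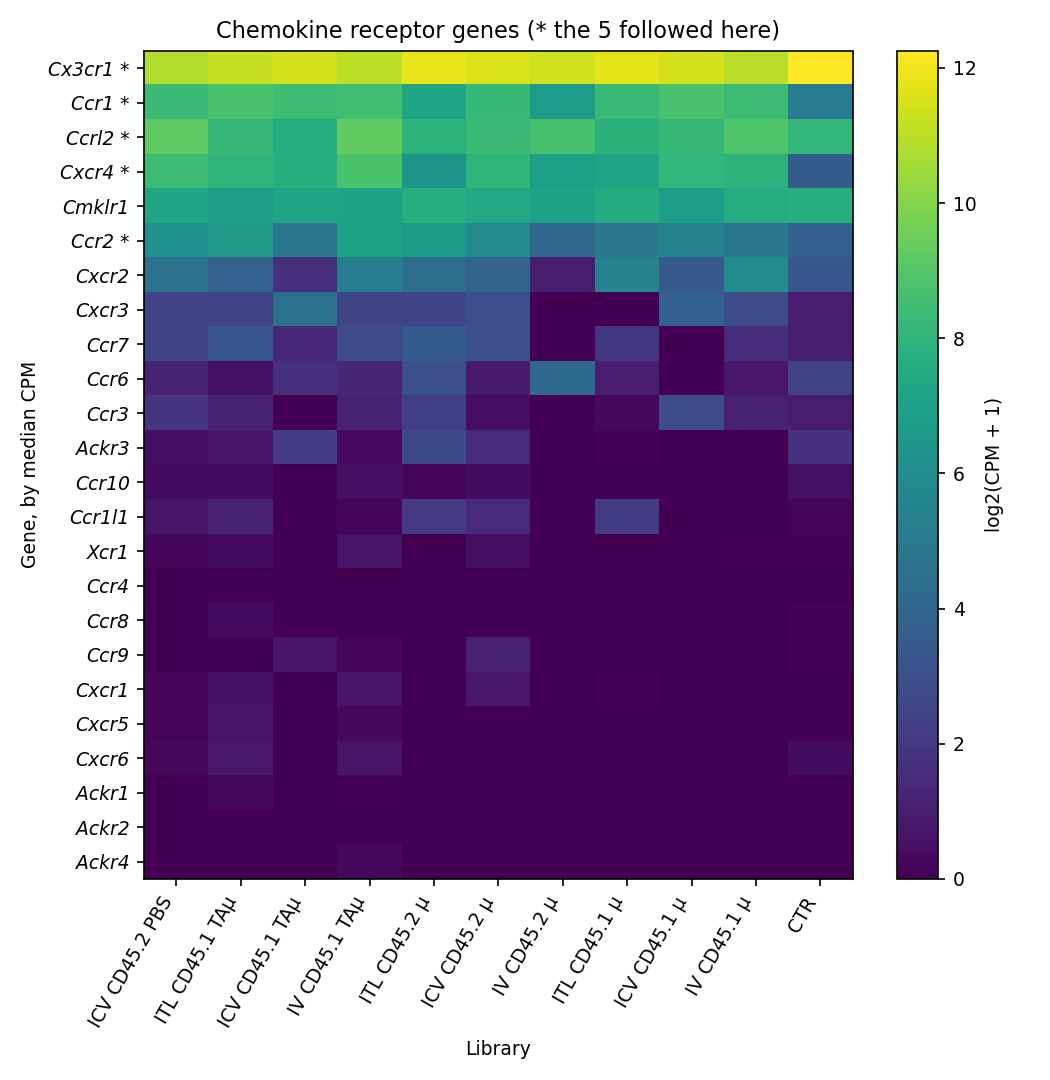
Heat map of log2(CPM + 1) for 24 chemokine receptor genes (rows, by median level) in the 11 libraries (columns). The 5 genes followed here are starred; they fill the top rows together with Cmklr1, and 14 genes stay under 10 CPM throughout.

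The 9 libraries of the layout were set against CTR to ask how these cells differ from control microglia. Cxcr4 and Ccr1 were much higher after transplantation in every library, and Cx3cr1 was lower in every one. With 1 control library there was no test, and CTR also differs in the sex marker Xist, so transplantation, animal and sex cannot be told apart. A gene was called where all 9 libraries lay more than 1 log2 unit to 1 side of CTR, which held above CTR for 1.09% of 14643 genes and below it for 0.417%.

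Cxcr4 averaged 225 ± 104 CPM in the 9 libraries (SD) and had 11.2 CPM in CTR, from 146 counts, a 20.1-fold difference. The nearest library, ITL CD45.2 µ, was still 7.68-fold above the control. Ccr1 averaged 306 ± 110 CPM and had 31.8 CPM in CTR, 9.63-fold higher, with the nearest library 3.42-fold above. These were the 2 members called, and both calls stood with totals scaled by TMM (trimmed mean of M-values, which corrects for composition) and with totals without Rn45s.

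Ccr2 averaged 58.7 ± 40.7 CPM against 13.1 CPM in CTR, 4.48-fold higher and above it in 9 of 9 libraries, but the nearest library, IV CD45.2 µ, exceeded CTR by only 1.25-fold and the call was missed. Without ICV CD45.1 µ and IV CD45.2 µ, 3 members were called, Ccr2 among them. With fewer libraries the rule is easier for any gene to meet, and the share of all genes meeting it was not computed. Ccrl2 averaged 342 ± 136 CPM against 275 CPM in CTR and was higher in 6 of 9 libraries. Cx3cr1 averaged 2779 ± 572 CPM against 4883 CPM in CTR, a ratio of 0.569, and was lower in 9 of 9 libraries, the nearest at 0.753 of the control. It did not reach the call.

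Expressed within a library, the balance of receptors does not depend on the total. Per 100 counts of Cx3cr1 there were 2.33 to 20.6 counts of Cxcr4 in the 9 libraries against 0.229 in CTR, so that even the lowest was 10.2-fold above the control. For Ccr1 it was 4.03 to 18.4 against 0.650, 6.19-fold at the lowest. For Ccr2 it was 0.611 to 6.31 against 0.268, 2.28-fold at the lowest. Ccrl2 per 100 Cx3cr1 counts separated least, with 6.57 to 29.4 against 5.62. Cx3cr1 itself was lower than in CTR in all 9 libraries, which raises each of these ratios. In CPM, Ccrl2 did not separate, since CTR lay inside its range.

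Over the family list, 15 of 24 genes were measured in this comparison, and the 2 called are Cxcr4 and Ccr1. The median log2 difference of the list was 0.53, against 0.22 over all genes. That median is the value of Ccr3, a gene near the floor, with 0.918 CPM in CTR and a mean of 1.55 CPM in the 9 libraries. It does not show a rise of the family. In every one of the 9 libraries Ccr2, Cxcr4 and Ccr1 were above CTR, and Cx3cr1 and Cmklr1 were under it. Of the ligands, 0 of 13 measured were called. Ccl12, a ligand of Ccr2 in mice, was above CTR in all 9 libraries, at 132 ± 26.9 CPM against 46.3 CPM. The Ccr1 ligand gene Ccl3 (335 ± 103 CPM against 773 CPM), its close relative Ccl4 (300 ± 141 against 702 CPM) and the Ccr1 ligand gene Ccl9 (35.1 ± 19.0 against 100.4 CPM) were under it in all 9.

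Of 26 measured genes of receptor signalling and desensitisation, 0 were called. Rgs1, which shortens G protein signals, was above CTR in all 9 libraries (1800 ± 810 CPM against 813 CPM), and its relative Rgs10, abundant in microglia, was under it (186 ± 42.8 against 319 CPM). Of the 13 marker lists, 2 held called genes. Of the graft-derived brain macrophage genes 8 of 8 were called above CTR (sum 5966 to 32571 CPM against 907 CPM). Most of the sum was Apoe, with a mean of 18459 CPM in the 9 libraries, and Lyz2 was next at 2047 CPM. That list was chosen with earlier results of these data known. Its name is a label only, since the labels do not say which cells came from the graft, and PBS had a sum of 23462 CPM. Of the border-associated macrophage genes 2 of 8 were called above CTR, Mrc1 and Siglec1. The list's sum was 485 to 2510 CPM in the 9 libraries against 216 CPM in CTR. Most of it was Mrc1, with a mean of 1375 CPM in the 9 libraries against 151 CPM for Siglec1. Of the homeostatic microglia genes 8 of 10 were lower in all 9 libraries, with 0 called. The part of these lists in the members' difference was not tested.

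The populations were compared in 1 additive model of route and population over the 9 libraries (edgeR's quasi-likelihood F test, Benjamini-Hochberg adjusted over 13339 genes). CD45.1 TAµ was set against CD45.2 µ to see how cells of different allele and label differ. Ccr1 and Cxcr4 were fitted about 1 log2 unit higher in CD45.1 TAµ, and neither passed the test. In this contrast 0.345% of genes were called and 0 of 5 members.

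Ccr1 averaged 379 ± 41.2 CPM in CD45.1 TAµ and 185 ± 101 CPM in CD45.2 µ (SD, n = 3 each), and the ranges did not overlap. Its fitted log2 fold change was 1.19 ± 0.29 (SE; 95% interval 0.57 to 1.81), higher by 3 of 3 routes, with an adjusted p of 0.124 by edgeR. By IV it was 3.28-fold, by ITL 2.88-fold and by ICV 1.18-fold. DESeq2 (adjusted p = 0.00814) and limma-voom (0.037) called it, and so did edgeR without ICV CD45.2 µ (adjusted p = 0.00773). In the same order, these settings called 1.92%, 0.982% and 1.21% of all genes. Over its alternatives the adjusted p of Ccr1 ran from 0.00773 to 1.

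Cxcr4 averaged 298 ± 120 CPM in CD45.1 TAµ and 156 ± 92.1 CPM in CD45.2 µ. The fitted log2 fold change was 1.06 ± 0.34 (95% interval 0.35 to 1.78; adjusted p = 0.335 by edgeR), but by ICV the CD45.1 TAµ library was the lower one (0.790-fold), against 3.53-fold by IV and 2.96-fold by ITL. Without ICV CD45.1 TAµ or without ICV CD45.2 µ it passed by edgeR, at 1.59 (adjusted p = 0.0345) and 1.66 (0.0161). Of all genes, 0.679% and 1.21% were called there. The other members did not pass: Cx3cr1 was at -0.29 ± 0.20, Ccr2 at 0.70 ± 0.53 and Ccrl2 at 0.11 ± 0.26. Ccr2 was 8.18-fold higher by IV and 0.511-fold by ICV, and its 95% interval ran from -0.41 to 1.82.

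Several marker lists differed beside this contrast. The graft-derived brain macrophage sum was 20600 to 32571 CPM in CD45.1 TAµ and 5966 to 22700 CPM in CD45.2 µ, and all 8 genes were fitted higher in CD45.1 TAµ, with 0 called. The homeostatic sum was 5880 to 8883 CPM in CD45.1 TAµ and 8563 to 17086 CPM in CD45.2 µ, with 4 of 10 genes called lower. Border-associated macrophage markers summed to 1794 to 2313 CPM in CD45.1 TAµ and 485 to 1609 CPM in CD45.2 µ without overlap, with 1 of 8 genes called higher. Astrocyte markers summed to 59.99 to 243 CPM in CD45.1 TAµ and 231 to 613 CPM in CD45.2 µ, with 1 of 7 genes called lower, and T and NK cell markers to 16.2 to 23.4 CPM in CD45.1 TAµ and at most 14.7 CPM in CD45.2 µ. Library by library, the lowest graft-derived sums (5966 and 7754 CPM, ITL and IV CD45.2 µ) went with the lowest levels of Ccr1 (148 and 109 CPM), while the other 7 libraries had sums of at least 20600 CPM and at least 299 CPM of Ccr1. The graft-derived sum is mostly Apoe and the border-associated sum mostly Mrc1, so each says little about the rest of its list. Cxcr4 was at 141 CPM or under in the 3 libraries with the highest homeostatic sums (15250 CPM and up). In the other 6 it was at 206 CPM or more. Correlations over the 9 libraries used log2(CPM + 1) of the member and its mean over the genes of a list, not the sums. By this measure Ccr1 ran with the graft-derived (r = 0.969) and border-associated genes (r = 0.836). Cxcr4 ran against the astrocyte (r = -0.925) and homeostatic genes (r = -0.895), a description of libraries that share their scaling. The part of these lists in the contrast was not tested.

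**Figure D3:**
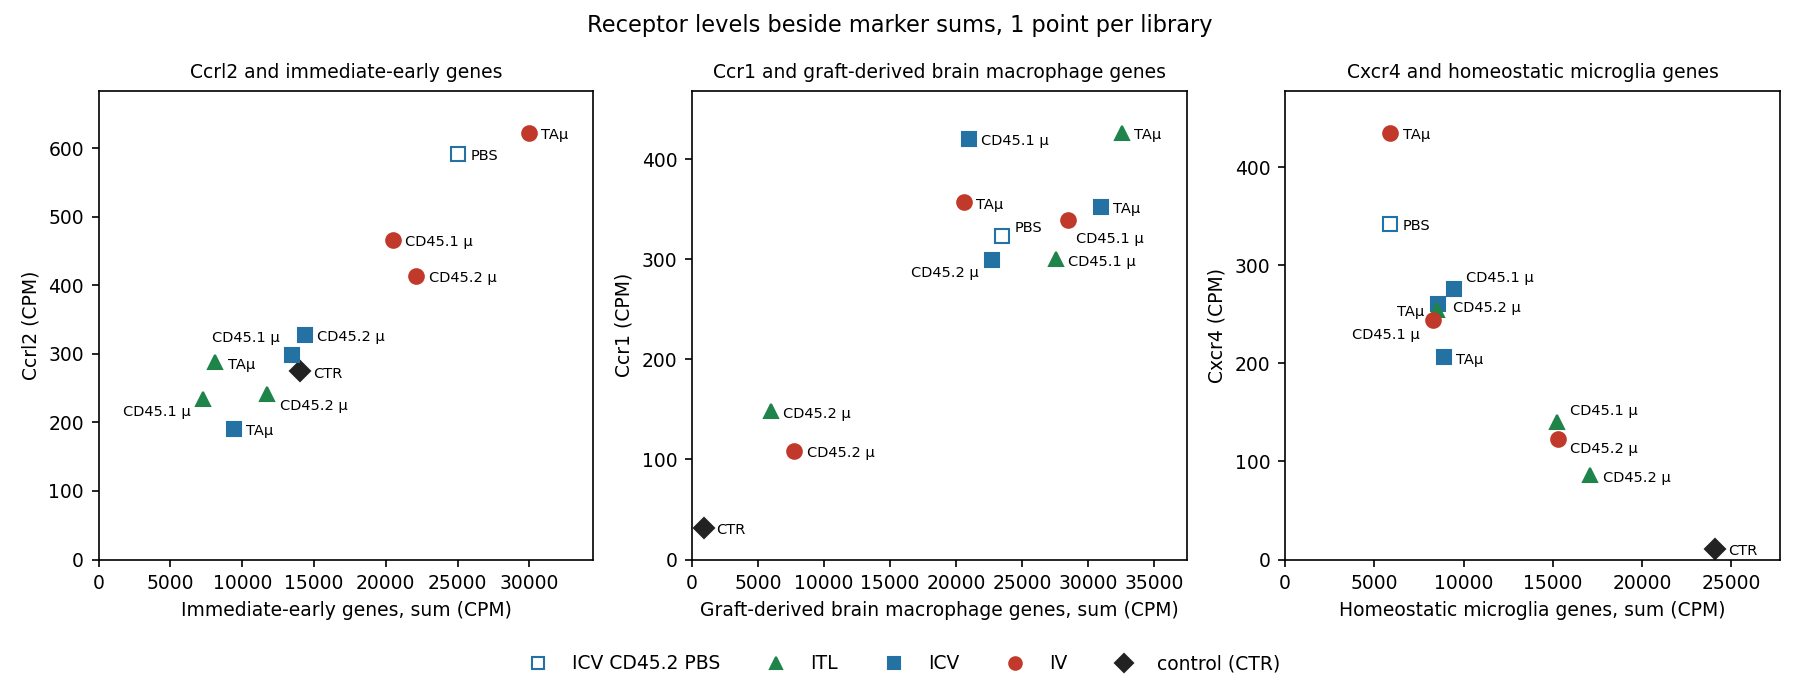
Level of Ccrl2, Ccr1 and Cxcr4 (CPM, vertical axes) against the summed CPM of immediate-early, graft-derived macrophage and homeostatic microglia marker genes. Each point is 1 library, labelled by population, and the graft-derived sum is mostly Apoe. Ccrl2 is highest where the immediate-early sum is highest, Ccr1 is lowest in ITL and IV CD45.2 µ and in CTR, and Cxcr4 is lowest where the homeostatic sum is highest.

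CD45.1 TAµ was also set against CD45.1 µ, populations that share the allele. No member passed the test, with 0.075% of all genes called. Ccr2 had the largest fitted difference of the members, a log2 fold change of 1.44 ± 0.53 (95% interval 0.32 to 2.55; adjusted p = 0.874 by edgeR). It averaged 85.2 ± 52.7 CPM in CD45.1 TAµ and 33.2 ± 8.64 CPM in CD45.1 µ, and was 4.68-fold higher by IV and 3.34-fold by ITL but 0.668-fold by ICV. The fitted value moved with the library left out: it was 0.50 without IV CD45.1 TAµ and 2.06 without ICV CD45.1 TAµ, not called in either case. Cxcr4 was fitted at 0.62 ± 0.32, higher by 2 of 3 routes. Ccr1, Ccrl2 and Cx3cr1 were at 0.24 ± 0.28, 0.18 ± 0.25 and -0.039 ± 0.20. The interval of Cx3cr1 ran from -0.47 to 0.39.

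Dendritic cell markers, which Ccr2-bearing cells can carry, summed to 17.9 to 41.9 CPM in CD45.1 TAµ and 1.53 to 16.2 CPM in CD45.1 µ. Of the tested ones, 5 of 5 were fitted higher in CD45.1 TAµ. Every CD45.1 TAµ library also had more genes with a count (13560 to 15492) than every CD45.1 µ library (11456 to 12232). The part of that difference in markers of a few CPM was not tested. Classical monocyte markers summed to 115 to 345 CPM in CD45.1 TAµ and 103 to 1057 CPM in CD45.1 µ. Gene by gene, 6 of 8 of them were fitted higher in CD45.1 TAµ and 2 lower, with 0 called. Flt3, a defining dendritic cell gene, had at most 8.83 CPM, and the monocyte genes differed among themselves. Ly6c2 had 3.01 to 51.7 CPM in CD45.1 TAµ and 16.6 to 70.7 CPM in CD45.1 µ, and was lower in CD45.1 TAµ by 3 of 3 routes (2 of 3 with TMM-scaled totals). Vcan had 1.67 to 27.8 CPM in CD45.1 TAµ and at most 3.20 CPM in CD45.1 µ, and was higher in CD45.1 TAµ by 3 of 3 routes without being called (adjusted p = 0.874 by edgeR). On a log2(CPM + 1) scale over the 9 libraries, Ccr2 ran with the mean of the dendritic cell (r = 0.783) and of the monocyte genes (r = 0.754). These are not correlations with the sums. The highest monocyte sum, 1057 CPM in IV CD45.1 µ, stood beside 28.5 CPM of Ccr2. The part of either cell type in the level of Ccr2 was not tested.

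CD45.2 µ against CD45.1 µ asked how µ cells of the alleles differ. Ccr1 was lower in CD45.2 µ by all 3 routes and did not pass, with 0.03% of all genes called. It averaged 185 ± 101 CPM in CD45.2 µ and 353 ± 61.4 CPM in CD45.1 µ, with a log2 fold change of -0.95 ± 0.29 (95% interval -1.57 to -0.33; adjusted p = 0.485 by edgeR). The ranges met at 299 and 300.0 CPM without overlap, and they overlapped with TMM-scaled totals. Beside it, all 8 graft-derived and all 8 border-associated macrophage genes were fitted lower in CD45.2 µ, with 0 called, and the part of these lists was not tested. By route the ratio was 0.494 (ITL), 0.711 (ICV) and 0.320 (IV). Cxcr4 was at -0.45 ± 0.33, Ccr2 at 0.73 ± 0.54, Cx3cr1 at 0.25 ± 0.20 and Ccrl2 at 0.071 ± 0.25.

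**Figure D4:**
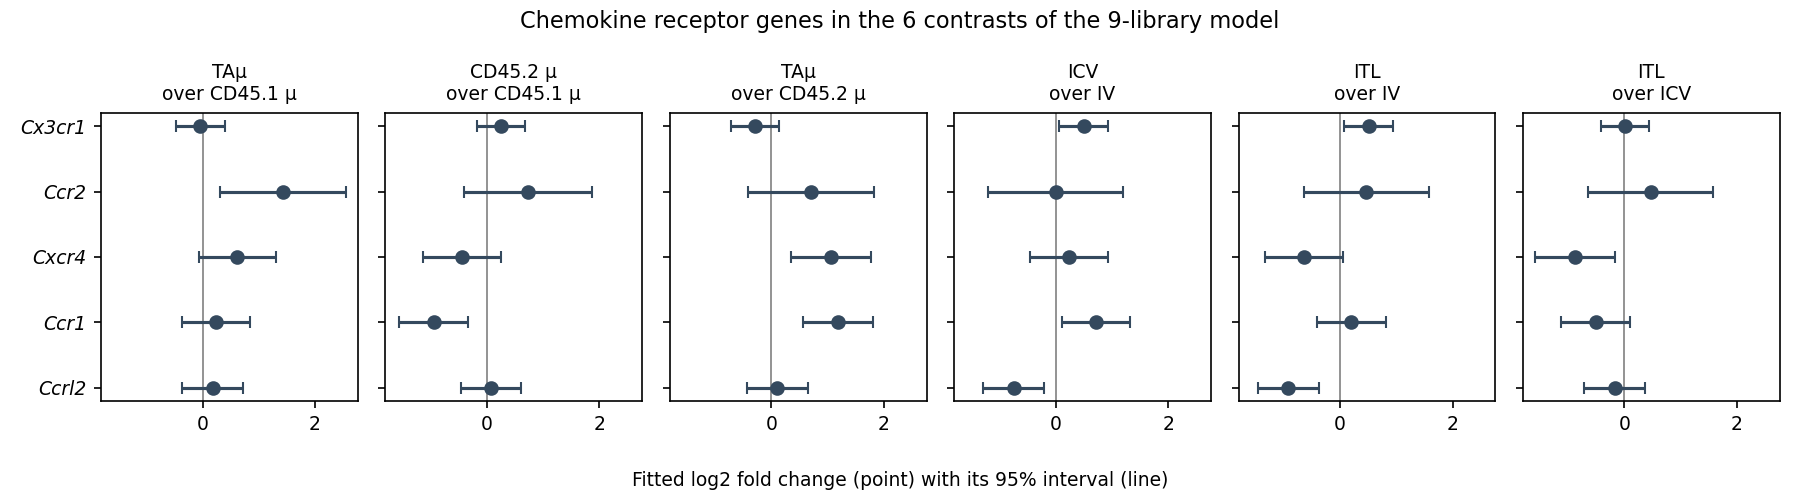
Fitted log2 fold change (point) and 95% interval (line) of the 5 receptor genes in the 6 contrasts of the additive model over 9 libraries; a value above 0 means higher in the group named first. Ccr1 and Cxcr4 lie to the right in CD45.1 TAµ over CD45.2 µ, Ccrl2 lies to the left in ICV and ITL over IV, and none passed the adjusted threshold of 0.05.

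The routes were compared to ask whether libraries labelled ITL or ICV differ from those labelled IV. The labels do not show which of the 3 populations were themselves delivered by the labelled route. Ccrl2 was lower after ITL than after IV delivery in all 3 populations, without passing the test. Of all genes, 0.217% were called in ITL against IV. Ccrl2 averaged 254 ± 29.1 CPM by ITL and 501 ± 108 CPM by IV, and the ranges did not overlap. The log2 fold change was -0.92 ± 0.26 (95% interval -1.46 to -0.38; adjusted p = 0.297 by edgeR), and the ratio of ITL to IV was 0.463 for CD45.1 TAµ, 0.584 for CD45.2 µ and 0.501 for CD45.1 µ. DESeq2 (adjusted p = 0.0355) and limma-voom (0.0200) called it, and the range over its alternatives was 0.0200 to 1.00. Of all genes, DESeq2 called 1.97% and limma-voom 0.802% in this contrast.

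In ICV against IV, where 0% of genes were called (1230 at an unadjusted p under 0.05, and 412 by DESeq2), Ccrl2 was fitted at -0.75 ± 0.26 (adjusted p = 0.429 by edgeR) and lower in 3 of 3 populations. It averaged 272 ± 72.3 CPM by ICV against the IV mean of 501 CPM. In ITL against ICV, also with 0% called (506 at an unadjusted p under 0.05, and 264 by DESeq2), it was at -0.17 ± 0.26.

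Immediate-early genes, which respond within minutes to handling and other stimuli, moved with Ccrl2. Their sum was 7281 to 11751 CPM by ITL, 9420 to 14348 CPM by ICV and 20499 to 29961 CPM by IV. In ITL against IV, 6 of 10 were called lower. The PBS library, with the next highest Ccrl2 after IV CD45.1 TAµ, had a sum of 25044 CPM. The part of these genes in the level of Ccrl2 was not tested. Rgs1, in the signalling list, was fitted at -1.08 ± 0.25 in ITL against IV (adjusted p = 0.129 by edgeR).

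Cx3cr1 was fitted 0.51 ± 0.20 log2 units higher by ITL than by IV and 0.50 ± 0.20 higher by ICV than by IV, in 3 of 3 populations each, with adjusted p of 0.807 and 0.491 by edgeR. It averaged 3151 ± 730 CPM by ITL, 2914 ± 176 CPM by ICV and 2270 ± 350 CPM by IV. The ICV and IV ranges did not overlap. Cxcr4 was lower by ITL than by IV in 3 of 3 populations (-0.65 ± 0.33, adjusted p = 0.915 by edgeR). In ITL against ICV it was at -0.89 ± 0.34 (adjusted p = 0.998 by edgeR), and the direction held in 2 of 3. Ccr1 was fitted 0.71 ± 0.29 higher by ICV than by IV (adjusted p = 0.490 by edgeR), in CPM 2.75-fold in CD45.2 µ, 1.24-fold in CD45.1 µ and 0.988-fold in CD45.1 TAµ. Ccr2 had intervals of over 2 log2 units in each route contrast, and its direction was not shared by the populations.

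Across the 3 lists fixed for the pathway, 0 of 13 tested receptors, 0 of 12 ligands and 0 of 26 signalling genes were called in any of the 6 contrasts. Median log2 fold changes of the receptors ran from 0.011 to 0.31, against -0.02 to 0.10 over all genes. Ccl4 had the smallest unadjusted p of the ligands in CD45.1 TAµ against CD45.2 µ (-1.04 ± 0.25, adjusted p = 0.104 by edgeR). Cxcl12, the ligand gene of Cxcr4, had 3.58 to 94.6 CPM in CD45.1 TAµ, 16.3 to 79.5 CPM in CD45.2 µ and 8.74 to 20.0 CPM in CD45.1 µ. Cx3cl1, the ligand gene of Cx3cr1 that neurons express, had at most 13.8 CPM in any library.

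The PBS library was compared with ICV CD45.2 µ, which shares its route and allele. With 1 library each there was no test, and 9.6% of 10823 genes with enough counts were more than 2-fold apart. None of the 5 members was. Ccrl2 had 591 CPM in PBS and 327 CPM in ICV CD45.2 µ, a ratio of 1.81 (95% interval 1.75 to 1.86, counting error only). Cxcr4 was at 1.31 (1.27 to 1.36), Ccr2 at 1.29 (1.19 to 1.39) and Ccr1 at 1.08 (1.04 to 1.12), and the direction of Ccr1 turned with either other scaling of the totals. Cx3cr1 was lower, 1842 CPM in PBS against 3116 CPM in ICV CD45.2 µ (0.591, 0.584 to 0.599). The homeostatic sum was 5876 CPM in PBS and 8563 CPM in ICV CD45.2 µ, and the immediate-early sum was 25044 CPM in PBS and 14348 CPM in ICV CD45.2 µ.

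Genes whose log2(CPM + 1) ran most like that of each member over the 9 libraries were listed among 7998 genes, as a description. The 9 points share route, population and library. Cx3cr1 was most like P2ry13, a purine receptor gene of microglia (Pearson's r = 0.952), then Serinc3, Hivep3 and Smg8. Cxcr4 was most like Gpr65, a proton-sensing receptor gene (0.951), then Ifi203, the potassium channel gene Kcna3 and the inflammasome gene Nlrc4. Ccr1 was most like Emilin1, an extracellular matrix gene (0.978), then Tmem176a, the interferon receptor gene Ifnar1 and Fgl2. Ccr2 was most like Ripk1 (0.912), then Zfp326, Nr4a1 and Ap1m1.

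Ccrl2 was most like Nfkbiz, an inhibitor-family regulator of NF-kB (0.981), then Rfx7, Klf6 and Rgs1. For comparison, the 99th percentile of r over all 7998 genes was 0.731 for Cx3cr1, 0.745 for Ccr2, 0.807 for Cxcr4, 0.886 for Ccr1 and 0.841 for Ccrl2. Among the members themselves, Cxcr4 and Ccr1 ran together (r = 0.778 over 9 libraries), and Cx3cr1 ran against Ccrl2 (-0.720) and Cxcr4 (-0.705).

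Since Ccrl2 ran with Nfkbiz, the promoter windows of the members in RefSeq (GRCm38.p6, 250 bases before each annotated start, both strands) were searched for 4 motifs. The NF-kB pattern GGGANNNNCC was found in Ccrl2, at 1 of its 3 annotated starts, and in Ccr1. It stands in 17.63% of all 32851 windows. The Ccrl2 window, chr9:111057519-111057768 on the minus strand, is shown 5′ to 3′ with its 2 matches, both on the other strand, in capitals.
Ccrl2 promoter: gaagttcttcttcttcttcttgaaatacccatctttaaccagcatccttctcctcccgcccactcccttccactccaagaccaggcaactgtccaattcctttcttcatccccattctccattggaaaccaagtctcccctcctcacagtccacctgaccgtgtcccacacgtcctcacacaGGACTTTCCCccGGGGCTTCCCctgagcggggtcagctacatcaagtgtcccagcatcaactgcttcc
The matches begin 68 and 56 bases before the start and do not overlap. The PU.1 core GAGGAA was found in Ccr1 (23.25% of all windows). The AP-1 pattern TGANTCA (6.75%) and the interferon-response pattern GAAANNGAAA (2.98%) were in none of the members' windows. A match is a run of letters, not a bound site, and the files hold no measurement of binding.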

How the data were processed

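The authors deposited raw counts, integer reads for each gene symbol, not normalized. Reads were aligned with STAR to the mouse genome mm39 (GRCm39), per the submitters' processing notes. Version, annotation, strand setting and the treatment of multiply mapped reads are not given in sources used here, so antisense and paralog reads cannot be separated.

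The software was DESeq2 1.42.0, edgeR 4.0.16 and limma 3.58.1 under R 4.3.3. Levels are counts scaled to the library total. For the contrasts, genes were filtered (minimum count 10, minimum total 15), scaled by TMM and fitted over 9 libraries with additive terms for route and population, leaving 4 residual degrees of freedom. The quasi-likelihood F test was used in its bias-adjusted form, a choice made after the data were seen. The SE is the absolute log2 fold change divided by the square root of F. The CTR comparison used log2(CPM + 0.5), and the PBS comparison used genes with at least 100 counts in the pair. The fitting code was run on counts simulated from gene means with planted changes and no other difference of route or population. That run checks the code, not the error rate or power in these libraries. Alternatives varied size factors, filter, test, block, Rn45s in the totals and the libraries used.

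The members and the 16 gene lists (3 of the pathway, 13 of markers) were chosen with earlier results of these data known. Of 169 listed symbols 165 are in the tables; 1 further receptor of the family list is not reported here. Named genes were the members, up to 4 of each pathway list by smallest p or widest gap to CTR, and the 4 genes most like each member with a mean of at least 10 CPM. Cxcr2, Cxcl12, Cx3cl1, Flt3, Ly6c2, Vcan, Mrc1, Siglec1 and Xist were picked with their values known. Coding and promoter sequences are from GENCODE vM21 and RefSeq on GRCm38, another build than the authors', and serve only as sequence.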

Additional observations from a re-analysis of the deposited data

Results flagged for a closer look

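For 3 members the direction of a contrast turned between routes or populations by more than 1.5-fold each way. With 1 library per combination these differences were not tested. Ccr2 in CD45.1 TAµ over CD45.2 µ was 8.18-fold by IV and 0.511-fold by ICV. In CD45.2 µ over CD45.1 µ it was 0.572-fold by IV and 3.58-fold by ITL, and in ICV over IV it was 0.216-fold in CD45.1 TAµ and 3.46-fold in CD45.2 µ. Ccrl2 in CD45.1 TAµ over CD45.2 µ was 1.5-fold by IV and 0.581-fold by ICV. Cxcr4 in ICV over IV was 0.474-fold in CD45.1 TAµ and 2.12-fold in CD45.2 µ. Each of these pairs includes IV CD45.2 µ or IV CD45.1 TAµ, which had the lowest and the highest level of Ccr2 among the 9 libraries.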

How the results depend on the processing

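The 30 fitted values of the members were recomputed under 17 alternatives each. Of these, 468 kept direction and side of the threshold, 35 (in 12 of the 30) turned direction and 7 newly passed. The cause of these changes was not tested.

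The number of members called in CD45.1 TAµ over CD45.2 µ was 1 by DESeq2, 1 by limma-voom and 0 to 2 without 1 library. In ITL over IV it was 1 by DESeq2 and 1 by limma-voom. Over all genes limma-voom called 131 (0.982%) in CD45.1 TAµ over CD45.2 µ and 107 (0.802%) in ITL over IV, against 46 and 29 by edgeR, and without 1 library edgeR called 5 to 159 (0.0382% to 1.21%) in CD45.1 TAµ over CD45.2 µ. DESeq2 called 559 (3.23%) in CD45.1 TAµ over CD45.1 µ and 729 (4.21%) in CD45.2 µ over CD45.1 µ. It called 327 (1.92%) in CD45.1 TAµ over CD45.2 µ and 341 (1.97%) in ITL over IV.

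Log2 fold changes turned as follows. With ICV CD45.1 µ and IV CD45.2 µ left out, Cxcr4 was at 0.0199 in CD45.2 µ over CD45.1 µ and -0.202 in ICV over IV, Ccr2 at -0.340 in CD45.1 TAµ over CD45.2 µ and -0.341 in ITL over IV, Ccrl2 at -0.145 in CD45.1 TAµ over CD45.2 µ, and Cx3cr1 at -0.115 in ITL over ICV. With limma-voom, Cxcr4 was at -0.0422 in ICV over IV, Ccr2 at -0.0101 in ITL over IV and Cx3cr1 at -0.0553 in ITL over ICV. Ccr2 in ICV over IV was at 0.0132 with DESeq2's size factors and 0.0867 by DESeq2. By the legacy quasi-likelihood fit, an alternative chosen after seeing the data, it was at 0.0696. The main fits of Ccr2 in ICV over IV (-0.00125) and of Cx3cr1 in ITL over ICV (0.0108) were so small that a slight change turns the sign. These results held 8 and 4 of the turns. Ccr1 in PBS over ICV CD45.2 µ was at -0.0254 with TMM-scaled totals and -0.0306 with totals without Rn45s.

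Without 1 library at a time, ranges were as follows. In CD45.1 TAµ over CD45.1 µ Cx3cr1 ran from -0.170 to 0.126 and Ccr2 from 0.504 to 2.06. In CD45.2 µ over CD45.1 µ Ccrl2 ran from -0.255 to 0.291. In CD45.1 TAµ over CD45.2 µ Ccr2 ran from -0.0747 to 1.38, Ccrl2 from -0.104 to 0.436, Cxcr4 from 0.706 to 1.66 and Ccr1 from 0.886 to 1.70. In ICV over IV Ccr2 ran from -0.736 to 0.903 and Cxcr4 from -0.311 to 0.732. In ITL over IV Ccr2 ran from -0.185 to 1.54 and Ccr1 from -0.0269 to 0.517. In ITL over ICV Cx3cr1 ran from -0.121 to 0.175, Ccr2 from -0.132 to 0.950 and Ccrl2 from -0.464 to 0.169.

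No paired analysis was possible by animal because replicate or animal numbers are missing from the labels. The model itself compares populations within routes and routes within populations, and without that block 0 of 5 members were called in each contrast. Each member had at least 211 counts in each of the 9 libraries.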
